A study of Mus musculus with 15 samples.

Results

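The Toll-like receptors are the sensors with which macrophages recognize molecules of bacteria and viruses. The mouse genes described here were *Tlr1*, *Tlr2*, *Tlr3*, *Tlr4*, *Tlr5*, *Tlr6*, *Tlr7*, *Tlr8*, *Tlr9* and *Tlr13*, taken as the named family and not by a cut on any value, and all 10 were found among the 20089 genes of the expression table. Their messenger RNA was measured by RNA-seq in wild-type bone marrow-derived macrophages (BMDMs), cells grown from marrow with M-CSF, the growth factor of macrophages. The 15 samples formed 5 groups of 3, all of which had received M-CSF. The control group received nothing more, and the other groups received either RANKL, the ligand that turns macrophages into bone-resorbing osteoclasts, or lipopolysaccharide (LPS), the cell wall component of Gram-negative bacteria that binds the product of *Tlr4*. Each stimulus was given at 100 ng/mL for 4 h or for 3 d. The labels state neither the sex nor the exact age of the mice, nor whether replicates came from separate animals, so p-values describe the spread between these samples, part of which may be technical.

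Toll-like receptors act as pairs. TLR2 joins TLR1 or TLR6 at the cell surface to recognize bacterial lipopeptides, TLR4 recognizes LPS with its partner MD-2 and with CD14, and TLR5 recognizes flagellin. TLR3, TLR7, TLR8, TLR9 and TLR13 work in endosomes, where they recognize nucleic acids: double-stranded RNA for TLR3, single-stranded RNA for TLR7, unmethylated CpG DNA for TLR9 and bacterial ribosomal RNA for TLR13. Except for TLR3, these receptors signal through the adaptor MyD88 to the transcription factor NF-κB, and TLR3 uses the adaptor TRIF, as TLR4 also does. RANKL reaches NF-κB through a different receptor, and osteoclast precursors are macrophages that carry Toll-like receptors of their own.

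Levels are given as FPKM, the fragments of a gene scaled to its exon length and to the number of mapped reads, as the authors deposited them. Since FPKM is scaled to length, it allows levels of different receptors to be set side by side. Between 18306184 and 20330207 fragments per sample fell on listed genes. A member was called higher or lower when its fold change was above 1.5 or below 0.66 and its adjusted p, from a limma fit of log2(FPKM + 0.1) over 11743 genes in all 15 samples, was under 0.05. All 6 macrophage markers examined, *Adgre1* and *Csf1r* among them, had a mean above 1 FPKM in every group. Known targets of the stimuli also moved in LPS 4 h and RANKL 3 d. The mean of *Tnf* was 18.6 FPKM in control against 1970 FPKM in LPS 4 h, and that of *Ctsk*, the collagen-degrading protease of osteoclasts, was 24.0 FPKM in control against 1060 FPKM in RANKL 3 d. In RANKL 4 h the mean of *Ctsk* was 24.9 FPKM. There 0 of 8 osteoclast markers were called, where 0.111% of all tested genes were higher, so these markers do not show the stimulus in that group.

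The members lie at 8 places in the GRCm38 genome (GENCODE M21 annotation). *Tlr1* (chromosome 5, from 64924679 to 64933563) and *Tlr6* (chromosome 5, from 64952031 to 64960097) are neighbours on the minus strand, and *Tlr8* (chromosome X, from 167242696 to 167264329) and *Tlr7* (chromosome X, from 167304929 to 167330558) are neighbours on the minus strand of X. *Tlr1*, *Tlr2* and *Tlr6* each keep their whole coding sequence in 1 exon. The coding sequences of *Tlr1* and *Tlr6* were identical at 77.0% of 2339 aligned bases and their transcripts shared 454 stretches of 50 bases, that is 15.3% of those of *Tlr1* and 12.5% of those of *Tlr6*. No other pair of members shared a stretch of that length. How the counting divided reads between *Tlr1* and *Tlr6* is not stated, so their levels carry that uncertainty. The *Tlr3* locus (chromosome 8, from 45395665 to 45411080) overlaps the antisense gene *Gm45542*, and whether strand was used in counting is not given in the sources used here.

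Promoters from RefSeq (GRCm38.p6) were found for 8 of the 10 members, by symbol, and *Tlr4* and *Tlr7* had no entry. The 250 bases upstream of each start were searched on both strands for an NF-κB consensus, for the interferon-stimulated response element, read as GAAA, any 2 bases and GAAA, for the AP-1 site TGANTCA and for the PU.1 site GAGGAAGT. Of 32851 promoters of the same length, 7.25% held the NF-κB consensus, 2.98% the interferon element, 6.75% the AP-1 site and 2.44% the PU.1 site. The NF-κB consensus was present in *Tlr2* and *Tlr3*, the interferon element in 1 of the *Tlr6* promoters, the AP-1 site in *Tlr9* and the PU.1 site in 1 of the *Tlr1* promoters, while *Tlr5*, *Tlr8* and *Tlr13* held none of these letters in the windows searched. The windows shown are those of *Tlr2*, the member with the largest rise, of *Tlr13*, the highest member in every group except LPS 4 h and the one with the lowest adjusted p among the members lower in LPS 4 h, and of *Tlr9*, which was lower in the 3 d groups. They are written 5′ to 3′ on the strand of the gene, without bases inside annotated exons, and matched motifs are in capitals. A match describes letters and does not show that a factor binds there.
Tlr2 (chr3:83841768-83841858, minus strand): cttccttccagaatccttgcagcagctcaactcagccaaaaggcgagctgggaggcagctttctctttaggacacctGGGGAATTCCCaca
Tlr13 (chrX:106143025-106143203, plus strand): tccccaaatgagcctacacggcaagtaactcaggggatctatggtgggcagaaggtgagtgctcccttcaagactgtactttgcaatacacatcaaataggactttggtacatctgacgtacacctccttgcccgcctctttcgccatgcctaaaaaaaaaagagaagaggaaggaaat
Tlr9 (chr9:106222348-106222597, plus strand): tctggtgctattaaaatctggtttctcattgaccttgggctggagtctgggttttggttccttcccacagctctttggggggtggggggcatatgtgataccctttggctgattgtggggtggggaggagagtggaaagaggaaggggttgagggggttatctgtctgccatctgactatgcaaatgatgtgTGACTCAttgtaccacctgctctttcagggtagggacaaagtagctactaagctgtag
In *Tlr2* the capitals are NF-κB letters in overlapping matches on both strands, from 173 to 163 bases before the RefSeq start. The capitals in *Tlr9* are the AP-1 letters, 58 to 52 bases before the start, and *Tlr13* has no capitals because none of the 4 motifs was found.

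In unstimulated BMDMs the family was dominated by endosomal receptors. *Tlr13* was highest, with 120, 144 and 151 FPKM in the 3 control samples, followed by *Tlr7* (51.1 to 69.1 FPKM) and *Tlr8* (36.3 to 46.6 FPKM), and each of these was above the next in all 3 samples of the group. *Tlr1*, *Tlr4*, *Tlr9* and *Tlr2* came next with means of 22.0, 20.3, 20.0 and 16.3 FPKM, and neighbours in that order overlapped. *Tlr3* (5.92 FPKM) and *Tlr6* (5.21 FPKM) also overlapped, and *Tlr5* was lowest at 0.567 FPKM. Together the 10 receptors summed to 310 to 351 FPKM per control sample, of which the 5 surface receptors made up 17.3 to 22.3%.

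**Figure D1:**
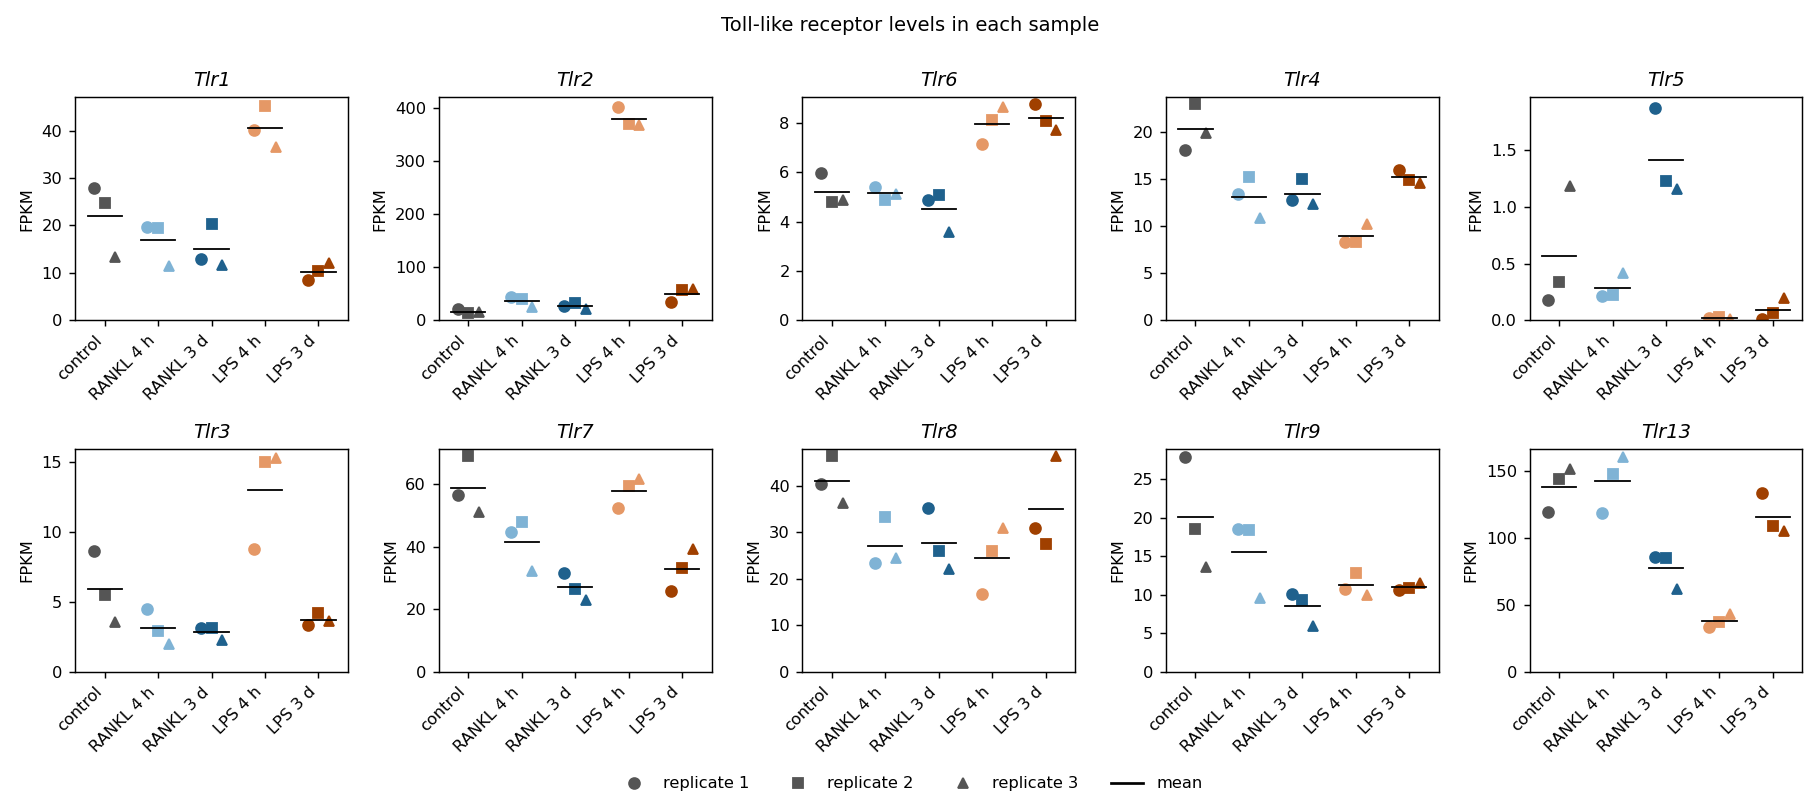
FPKM of each receptor (vertical axes, each from 0) in the 5 groups, with 1 point per sample, marker shape for the replicate number and a line at the group mean. *Tlr2* stands at 369 to 402 FPKM in LPS 4 h and at 58.2 FPKM or less elsewhere, *Tlr13* is lowest in that group, and *Tlr7* and *Tlr9* lie below control in both 3 d groups.

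LPS for 4 h changed 9 of the 10 members, 4 upward and 5 downward. Among all tested genes 8.43% were called higher and 39.7% lower in this comparison, so a call downward was common and a call upward was not. The median log2 fold change was -0.40 over the members and -0.52 over all tested genes, and values here are relative to control unless that shift is named. When values were centred on the median gene of the sample, 4 members were higher and 3 lower, and *Tlr8* and *Tlr9* then had log2 fold changes of -0.21 each and were not called. In bulk RNA, fewer cells of a type and less RNA per cell cannot be told apart, here and in the comparisons that follow. All comparisons with control use the same 3 control samples. The labels give the control group no time, so in every comparison of a 3 d group with control the stimulus and the longer culture cannot be told apart.

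RANKL for 4 h changed 0 of 10 members in the limma fit, and 0 with voom on recovered fragments, with 0.111% of all tested genes called higher and 0.00852% lower. With an unadjusted p under 0.05 and the same folds, 1 member was higher (*Tlr2*) and 3 were lower (*Tlr3*, *Tlr4* and *Tlr8*), where 1.21% of all genes were higher and 1.35% lower. All 3 RANKL 4 h samples were above all control samples for 1 member (*Tlr2*) and below them for 3 (*Tlr4*, *Tlr7* and *Tlr8*), against 6.05% and 4.71% of all tested genes. In RANKL 3 d, 6 members differed from control, 2 upward and 4 downward, against 16.6% and 7.54% of all tested genes, and the median log2 fold change was -0.59 over the members and 0.16 over all genes. Centred on the median gene, 0 were higher and 6 lower, since *Tlr2* and *Tlr5* lost their calls and *Tlr4* and *Tlr8* gained one. In LPS 3 d 6 members differed as well, 2 upward and 4 downward, against 13.0% and 14.4% of all tested genes, with medians of -0.49 and 0.08, and centred on the median gene 1 was higher and 4 lower.

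The 2 times of each stimulus were also set against each other, where a longer stimulus and a longer culture cannot be told apart. From 4 h to 3 d of RANKL, 1 member was higher and 3 were lower, against 16.4% and 6.83% of all tested genes. *Tlr5* was the member that was higher, and *Tlr7*, *Tlr9* and *Tlr13* were lower. From 4 h to 3 d of LPS, 2 members were higher (*Tlr4* and *Tlr13*) and 4 lower (*Tlr1*, *Tlr2*, *Tlr3* and *Tlr7*), against 44.2% and 13.9% of all tested genes, with a median log2 difference of 0.01 over the members and 0.52 over all genes. Centred on the median gene, the split was 1 higher and 5 lower.

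Markers of other cells of the marrow moved with the 3 d groups too. Among all tested genes 7.54% were lower and 16.6% higher in RANKL 3 d, and 14.4% were lower in LPS 3 d. The summed FPKM of 7 neutrophil markers was 6564 to 20415 in control, 1584 to 6232 in RANKL 3 d, where 3 of 7 were lower, and 145 to 1674 in LPS 3 d, where 7 of 7 were lower. Neutrophils are known to express several members, *Tlr2* and *Tlr4* among them. The sum of 4 basophil and mast cell markers was 22.8 to 65.0 FPKM in control and 0.473 to 3.62 FPKM in RANKL 3 d, with 4 of 4 lower, and in LPS 3 d it was 0.576 to 6.15 FPKM, with 3 of 4 lower. Of 6 stromal markers 3 were higher in RANKL 3 d, with sums of 301 to 1400 FPKM against 103 to 223 FPKM in control. LPS 3 d replicate 3 stood apart from its group, with a neutrophil sum of 1674 FPKM against 182 and 145 FPKM and a stromal sum of 337 FPKM against 51.9 and 52.4 FPKM in replicates 1 and 2. Without it, 5 members were called in LPS 3 d, 2 higher and 3 lower, as *Tlr9* lost its call (log2 -0.83, adjusted p = 0.0564). Against RANKL 3 d *Tlr13* gained one (log2 -0.65, adjusted p = 0.00991), and between the LPS times the split of 2 higher and 4 lower stayed. None of these 3 lists had a called gene at 4 h of either stimulus. The part of such cells in the levels of the members was not tested.

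**Figure D2:**
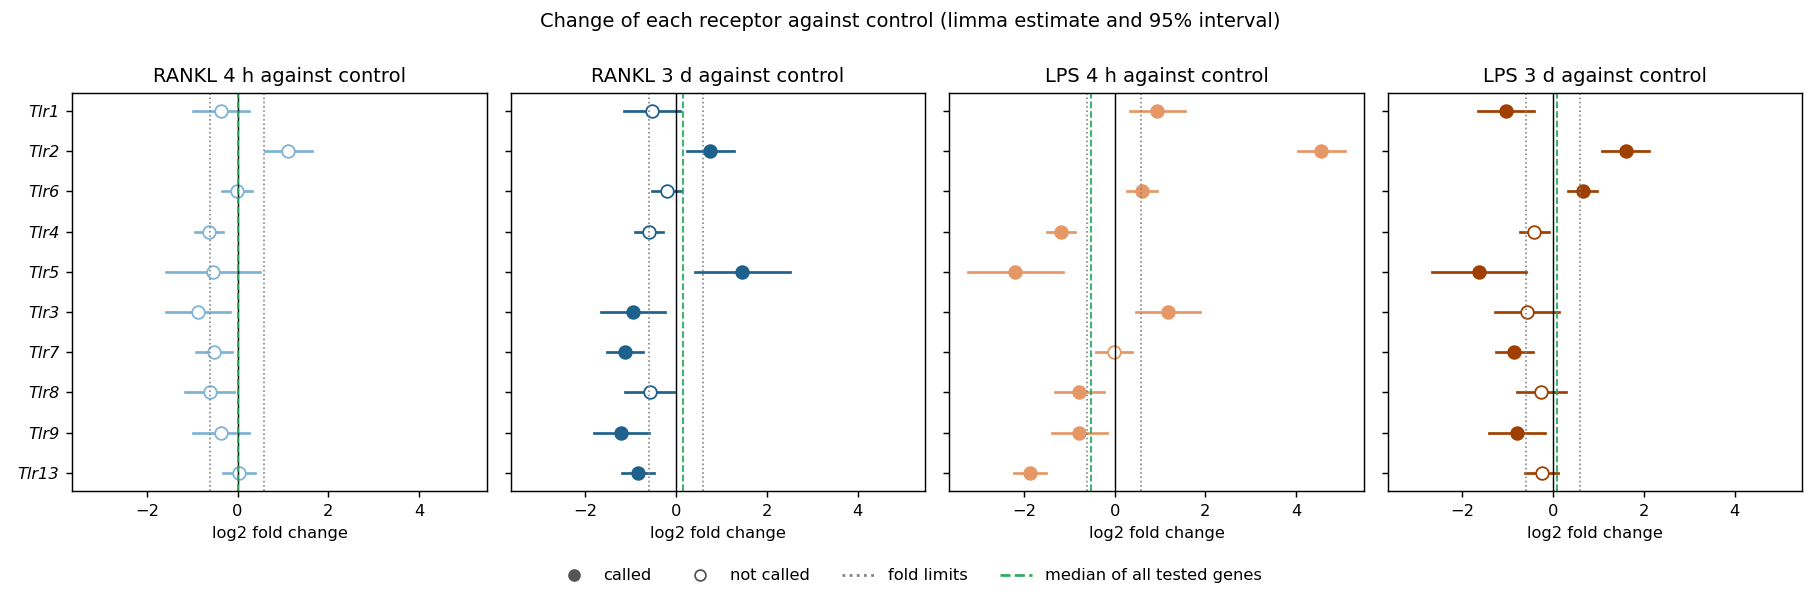
Log2 fold change of each receptor against control (horizontal axis) from the limma fit, with 95% intervals of the estimate from 3 samples per group. Filled points were called, open points were not, dotted lines mark the fold limits and the dashed line is the median of all tested genes, which lies at -0.52 for LPS 4 h.

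*Tlr2*, the shared partner of the lipopeptide receptors, was the member that rose most. Its level was 20.5, 13.9 and 14.4 FPKM in control and 402, 371 and 369 FPKM in LPS 4 h, and 34.7, 56.7 and 58.2 FPKM in LPS 3 d. Every sample given LPS lay above every control sample. The rise was 23.6-fold at 4 h (log2 fold change 4.56 ± 0.24 (SE), adjusted p = 1.05e-08) and 3.02-fold at 3 d (log2 1.59, adjusted p = 0.000253), and the fall from 4 h to 3 d was 7.81-fold (log2 -2.97, adjusted p = 3.42e-07).

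Under RANKL the *Tlr2* level was 43.0, 39.9 and 24.8 FPKM at 4 h and 27.4, 33.0 and 21.8 FPKM at 3 d. All 6 of these samples were above the 3 control samples as well. At 4 h the log2 fold change was 1.12, with a 95% interval from 0.60 to 1.64 and an adjusted p of 0.134, so the gene was not called. At 3 d it was called higher at 1.68-fold (log2 0.75, adjusted p = 0.0312), a call that was lost without control replicate 2, control replicate 3, RANKL 3 d replicate 1 or RANKL 3 d replicate 2 (adjusted p from 0.0718 to 0.116) and when values were centred on the median gene (adjusted p = 0.163).

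*Tlr1* and *Tlr6*, the partners of *Tlr2*, followed different courses. *Tlr1* was 27.9, 24.8 and 13.3 FPKM in control, 40.1, 45.2 and 36.6 FPKM in LPS 4 h and 8.48, 10.3 and 12.0 FPKM in LPS 3 d. *Tlr1* was thus above control in all samples at 4 h and below control in all samples at 3 d. The rise was 1.92-fold (adjusted p = 0.0115) and the fall 2.06-fold (adjusted p = 0.0124). Without control replicate 3, the lowest of its group, the rise was no longer called (log2 0.62, adjusted p = 0.0631), and without control replicate 1, control replicate 2 or LPS 3 d replicate 1 the fall was not (adjusted p from 0.0508 to 0.0570).

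*Tlr6* changed less and in 1 direction, from 5.96, 4.81 and 4.86 FPKM in control to 7.14, 8.12 and 8.68 FPKM in LPS 4 h and 8.80, 8.07 and 7.74 FPKM in LPS 3 d. All 6 LPS samples were above control, by 1.52-fold at 4 h (adjusted p = 0.00354) and 1.57-fold at 3 d (adjusted p = 0.00478). Both folds lay close to the limit of 1.5 and fell below it with a pseudocount of 1 (log2 0.53 and 0.57), at 4 h also without control replicate 2 or 3 or LPS 4 h replicate 3 (log2 0.55 to 0.56), and at 3 d when centred on the median gene (log2 0.57). Neither partner was called under RANKL: at 3 d *Tlr1* had a log2 fold change of -0.53 (adjusted p = 0.177) and *Tlr6* of -0.21 (adjusted p = 0.310). Without control replicate 3, *Tlr1* was called lower in RANKL 3 d (log2 -0.85, adjusted p = 0.0293).

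The balance between these 3 receptors therefore differed by group. *Tlr2* was 0.559 to 1.08 times *Tlr1* in FPKM in control samples, 2.05 to 2.19 times in RANKL 4 h, 1.63 to 2.11 times in RANKL 3 d, 8.20 to 10.1 times in LPS 4 h and 4.10 to 5.52 times in LPS 3 d. *Tlr1* was 2.74 to 5.16 times *Tlr6* in control and 0.964 to 1.55 times in LPS 3 d. With reads shared between *Tlr1* and *Tlr6*, this last ratio is the least certain.

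*Tlr4*, the LPS receptor, moved opposite to *Tlr2*. Control samples stood at 18.0, 22.9 and 19.8 FPKM, and LPS 4 h samples at 8.26, 8.28 and 10.2 FPKM, a 2.26-fold fall (log2 -1.18, adjusted p = 1.52e-05) that was called under every alternative tried. Relative to the median gene this fall was -0.65 on the log2 scale, so part of it was shared with most genes. At 3 d of LPS the samples had 16.0, 14.9 and 14.5 FPKM. These were still below every control sample but only 1.33-fold lower (log2 -0.41, adjusted p = 0.0387), short of the fold limit. The difference between the LPS times was called (1.70-fold higher at 3 d, adjusted p = 0.000355), though it shrank to 0.12 on the log2 scale (adjusted p = 0.530) when values were centred on the median gene.

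RANKL gave similar *Tlr4* levels at both times, with 13.4, 15.1 and 10.8 FPKM at 4 h and 12.7, 14.9 and 12.3 FPKM at 3 d. All 6 samples were below control. The log2 fold changes were -0.63 (adjusted p = 0.165) and -0.60 (adjusted p = 0.00721). The latter missed the call by its fold alone, 0.6604 against a limit of 0.66, and was called without control replicate 1 or 3 or RANKL 3 d replicate 2, with a pseudocount of 0.01, and when centred on the median gene (log2 -0.82).

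*Tlr5*, the flagellin receptor, was barely expressed, and its values rest on few fragments. Control samples had 0.182, 0.339 and 1.18 FPKM, from 26, 48 and 157 fragments, so replicate 3 stood well above the others. RANKL 3 d samples had 1.88, 1.23 and 1.16 FPKM, from 244, 167 and 155 fragments, and overlapped that control sample. *Tlr5* was called higher than control (log2 1.46, adjusted p = 0.0357), a call lost in 8 of 25 alternatives, among them a pseudocount of 0.01 (adjusted p = 0.123) and leaving out any of 5 control or RANKL 3 d samples. Against RANKL 4 h, with 0.211, 0.220 and 0.416 FPKM, the 3 d samples did not overlap and were higher by 2.0 on the log2 scale (adjusted p = 0.00811), under every alternative tried.

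Under LPS *Tlr5* nearly vanished, with 2, 4 and 2 fragments at 4 h and 1, 9 and 26 fragments at 3 d. Summed over samples, 231 fragments in control stood against 8 in LPS 4 h, a ratio of 28.9 with an exact 95% interval from 14.4 to 67.7 that covers counting error only. At 3 d the sum was 36 fragments, a ratio of 6.42 (interval 4.50 to 9.39), and the highest LPS 3 d sample (0.196 FPKM) overlapped the lowest control sample. Control replicate 3 carried 157 of the 231 control fragments, and without it, a choice made after the values were seen, the ratios per sample were 13.9 (interval 6.69 to 33.3) at 4 h and 3.08 (2.04 to 4.73) at 3 d. Both were called lower (adjusted p = 0.00161 and 0.0182), but not with a pseudocount of 1, and the call at 3 d was also lost without control replicate 3 (adjusted p = 0.0778), LPS 3 d replicate 1 or 2, or with these 2 groups fitted alone.

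Of the endosomal receptors, *Tlr13* showed the clearest response to LPS. The FPKM was 120, 144 and 151 in control and 33.4, 37.1 and 43.3 in LPS 4 h, and 134, 109 and 105 in LPS 3 d. The fall at 4 h was 3.64-fold (log2 -1.87 ± 0.17 (SE), adjusted p = 8.48e-07), and at 3 d the level overlapped control (log2 -0.26, 95% interval -0.61 to 0.10, adjusted p = 0.244). From 4 h to 3 d it was 3.05-fold higher (adjusted p = 2.12e-06). Relative to the median gene the fall at 4 h was -1.34 on the log2 scale.

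RANKL left *Tlr13* at 119, 148 and 161 FPKM at 4 h, overlapping control (log2 0.04, interval -0.32 to 0.39). At 3 d it was 85.6, 85.3 and 61.7 FPKM, below every control sample and 1.80-fold lower (adjusted p = 0.00208). Even so, *Tlr13* was the most abundant receptor in RANKL 3 d, at 37.2 to 38.0% of the family sum. The calls for *Tlr13* in LPS 4 h and RANKL 3 d held under every alternative tried.

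*Tlr7*, which recognizes single-stranded RNA, had 56.6, 69.1 and 51.1 FPKM in control and 52.3, 59.5 and 61.7 FPKM in LPS 4 h. It was the only member that LPS did not change at 4 h (log2 -0.02, interval -0.42 to 0.38, adjusted p = 0.940), and it lay 0.50 above the median gene on the log2 scale. It was lower at 3 d of either stimulus, with 25.9, 33.1 and 39.3 FPKM under LPS (1.81-fold, adjusted p = 0.0032) and 31.6, 26.5 and 23.0 FPKM under RANKL (2.18-fold, adjusted p = 0.000695). No sample of these groups reached the control range, and both calls held under every alternative. At 4 h of RANKL the samples, at 44.8, 47.8 and 32.1 FPKM, were also below control, but the log2 fold change of -0.51 had an adjusted p of 0.722.

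*Tlr8*, the neighbour of *Tlr7* on the X chromosome, was 40.4, 46.6 and 36.3 FPKM in control and 16.6, 26.0 and 31.0 FPKM in LPS 4 h. The groups did not overlap and the fall was 1.72-fold (adjusted p = 0.0156), a call lost without control replicate 2 (adjusted p = 0.0586) or LPS 4 h replicate 1 (adjusted p = 0.0825), and when centred on the median gene. In LPS 3 d it was 30.9, 27.5 and 46.5 FPKM and overlapped control. RANKL 3 d samples had 35.2, 25.9 and 22.2 FPKM, all below control, with a log2 fold change of -0.58 (adjusted p = 0.0918) that was called only when centred on the median gene (log2 -0.80, adjusted p = 0.0360). The ratio of *Tlr7* to *Tlr8* was 1.40 to 1.48 in control, 1.99 to 3.14 in LPS 4 h, and 0.838 to 1.20 in LPS 3 d.

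*Tlr9*, the DNA receptor, varied widely among unstimulated samples, with 27.9, 18.6 and 13.6 FPKM. RANKL 4 h samples had 18.6, 18.5 and 9.62 FPKM and overlapped them. RANKL 3 d samples had 10.1, 9.33 and 5.95 FPKM, all below control (2.31-fold, adjusted p = 0.00631), under every alternative tried. LPS samples lay closer together, at 10.8, 12.9 and 9.99 FPKM at 4 h and 10.6, 10.9 and 11.5 FPKM at 3 d. They too were below control, by 1.71-fold (adjusted p = 0.0297) and 1.74-fold (adjusted p = 0.042), but these calls were lost in 5 and 11 of 26 alternatives, among them leaving out control replicate 1 (adjusted p = 0.142 and 0.183).

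*Tlr9* and *Tlr7* are also expressed by plasmacytoid dendritic cells and B cells. Most markers of both cell types were called lower at 3 d. Of the plasmacytoid dendritic cell markers, 4 of 4 tested were called lower in RANKL 3 d and in LPS 3 d, against 7.54% and 14.4% of all tested genes. Their summed level was 7.25 to 17.0 FPKM in control, 6.17 to 17.9 in RANKL 4 h, 4.72 to 16.0 in LPS 4 h, 1.74 to 2.80 in RANKL 3 d and 1.69 to 2.97 in LPS 3 d, where *Siglech*, *Klk1* and *Cd209d* were at 0 in all 3 samples. Of 5 B cell markers, 4 were lower in RANKL 3 d and 5 in LPS 3 d, with summed levels of 16.2 to 20.9 FPKM in control, 5.24 to 17.4 in RANKL 4 h, 2.97 to 12.0 in LPS 4 h, 5.08 to 7.24 in RANKL 3 d and 0.497 to 2.22 in LPS 3 d. In LPS 4 h, where *Tlr9* was called lower, the B cell sums lay below those of control. Of the 5 markers 1, *Cd79b*, was called lower (log2 -2.17, adjusted p = 0.00298) and 4 were not called, where 39.7% of all tested genes were lower. The mean of *Cd79b* was 10.3 FPKM in control and 2.47 FPKM in LPS 4 h, a large part of the change in the sum. *Tlr9* and these sums were lowest in replicate 3 of control, RANKL 4 h and LPS 4 h. In LPS 3 d the 3 samples kept 10.6 to 11.5 FPKM of *Tlr9* with *Siglech*, *Klk1* and *Cd209d* at 0. The plasmacytoid dendritic cell markers *Ccr9* and *Cox6a2* remained there, with means of 0.164 and 2.27 FPKM. The part of other cells in the *Tlr9* and *Tlr7* values was not tested.

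**Figure D3:**
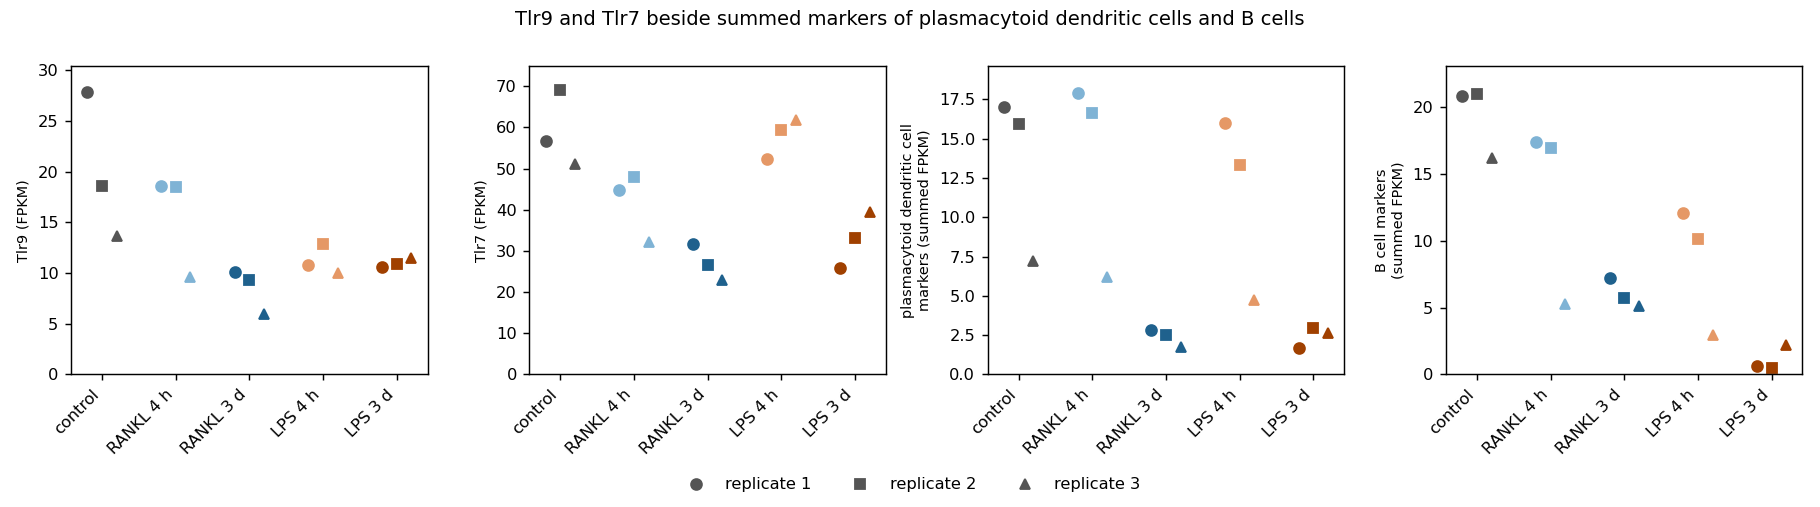
*Tlr9* and *Tlr7* in FPKM beside the summed FPKM of 5 plasmacytoid dendritic cell markers and 5 B cell markers, 1 point per sample with marker shape for the replicate number. Within control and both 4 h groups both sums are lowest in replicate 3, and in the 3 d groups they reach at most 2.97 and 7.24 FPKM, where *Tlr9* lies between 5.95 and 11.5 FPKM.

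*Tlr3*, the receptor of double-stranded RNA, was the endosomal member that rose with LPS. Control samples had 8.66, 5.50 and 3.59 FPKM and LPS 4 h samples 8.81, 15.04 and 15.3 FPKM, so that the lowest stimulated sample was just above the highest control sample. The rise was 2.26-fold (log2 1.17 ± 0.33 (SE), adjusted p = 0.00716) and held under every alternative. By 3 d of LPS it was 3.36, 4.23 and 3.60 FPKM, 3.35-fold below 4 h (adjusted p = 0.000345) and overlapping control. RANKL 4 h samples, at 4.48, 2.93 and 2.01 FPKM, overlapped control (log2 -0.87, adjusted p = 0.724). RANKL 3 d samples, at 3.15, 3.11 and 2.28 FPKM, did not, and were 1.94-fold lower (adjusted p = 0.0409), a call lost in 9 of 26 alternatives, including the omission of control replicate 1 (adjusted p = 0.188) or of any RANKL 3 d sample.

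The share of surface receptors in the family sum thus rose at 4 h of LPS, mostly through *Tlr2*, and had largely fallen back by 3 d. Of the other surface receptors, *Tlr1* and *Tlr6* were called higher at 4 h of LPS and *Tlr4* and *Tlr5* lower. Surface receptors made up 72.4 to 78.9% of the family sum in LPS 4 h, with *Tlr2* alone at 63.0 to 69.4%, against 3.96 to 6.30% for *Tlr2* in control. The family sum was 579 to 586 FPKM in LPS 4 h. It was 273 to 299 FPKM in LPS 3 d, where surface receptors made up 24.9 to 32.8%, and 166 to 226 FPKM in RANKL 3 d, where they made up 26.5 to 33.2%. In RANKL 4 h the sum was 281 to 330 FPKM with a surface part of 18.7 to 28.0%. *Tlr13* was the highest member in every sample outside LPS 4 h, where *Tlr2* was highest and *Tlr13*, at 5.77 to 7.40%, overlapped *Tlr1*.

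**Figure D4:**
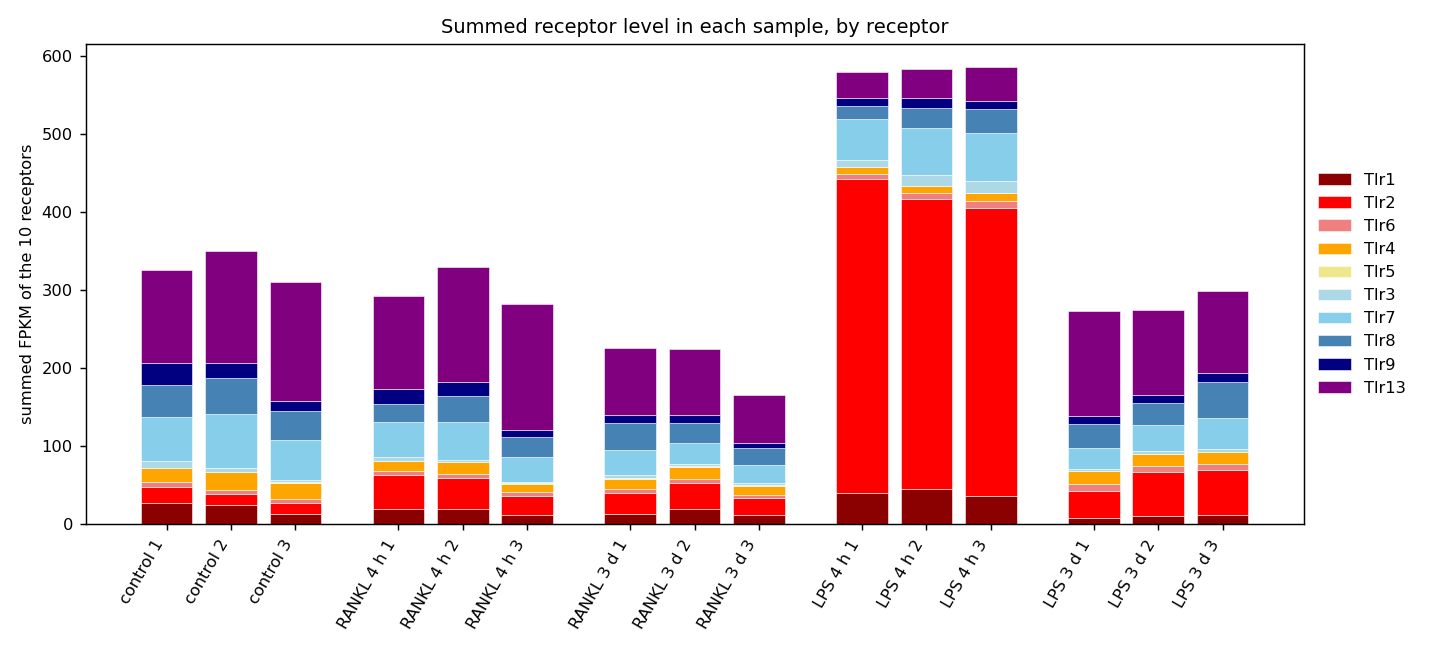
Summed FPKM of the 10 receptors in each of the 15 samples (bars from 0), divided by receptor, with the surface receptors at the bottom in warm colours. The LPS 4 h bars reach 579 to 586 FPKM, mostly *Tlr2*, while *Tlr13* is the largest segment in all other samples.

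RANKL and LPS were also compared directly at each time. At 4 h, 2 members were higher in RANKL (*Tlr13* 3.74-fold, *Tlr5* 3.13-fold) and 4 were lower (*Tlr2* 10.9-fold, *Tlr3* 4.14-fold, *Tlr1* 2.47-fold and *Tlr6* 1.54-fold), against 41.0% of all tested genes higher and 8.98% lower. Centred on the median gene, *Tlr7* was also lower in RANKL, by -1.06 on the log2 scale, and the *Tlr5* call was lost, which left 1 higher and 5 lower. The *Tlr5* fold rests on 115 fragments in RANKL 4 h and 8 in LPS 4 h, and its call was also lost with a pseudocount of 1 (log2 0.33, adjusted p = 0.135). The *Tlr6* call was lost without RANKL 4 h replicate 2 or LPS 4 h replicate 3 and with a pseudocount of 1. At 3 d, *Tlr5* was higher in RANKL (8.55-fold, adjusted p = 0.000178), and *Tlr2* (1.80-fold, adjusted p = 0.0113) and *Tlr6* (1.81-fold, adjusted p = 0.000443) were lower, against 23.3% and 12.8% of all tested genes. The difference in *Tlr2* was lost without RANKL 3 d replicate 3 or LPS 3 d replicate 2 (adjusted p = 0.0519 and 0.0507), and those in *Tlr5* and *Tlr6* held throughout. Centred on the median gene, *Tlr13* was called lower as well, so that 1 member was higher and 3 were lower.

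*Tlr7* and *Tlr9*, called lower at 3 d of both stimuli, did not differ between them by the test: the log2 difference of RANKL 3 d from LPS 3 d was -0.27 for *Tlr7* (95% interval -0.67 to 0.13) and -0.41 for *Tlr9* (-1.02 to 0.20). These intervals leave room for differences of up to the lower bounds given. The samples of the 2 groups overlapped for *Tlr7*, but for *Tlr9* all RANKL 3 d samples were below all LPS 3 d samples. For *Tlr13* all RANKL 3 d samples were below all LPS 3 d samples, and the log2 difference of -0.59 (adjusted p = 0.0101) was just short of the fold limit, at 0.665-fold. It passed without RANKL 3 d replicate 1 or 2 or without LPS 3 d replicate 2 or 3.

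Proteins that load, carry and cut the receptors were examined as lists. Of 6 co-receptor genes, 5 were lower and 0 higher in RANKL 3 d, where 7.54% of all tested genes were lower and 16.6% higher, and the median log2 fold change was -1.15 against 0.16 over all tested genes. They included *Cd180*, a TLR4-like regulator of LPS responses, at 244 FPKM in control and 89.4 FPKM in RANKL 3 d (log2 -1.47, adjusted p = 8.01e-06), and *Lbp*, the LPS-binding protein (log2 -1.71, adjusted p = 0.0148), beside *Ly96*, *Cd36* and *Ly86*. *Cd14*, which hands LPS to the TLR4 complex, was the exception and was not called in RANKL 3 d (log2 0.47, adjusted p = 0.072). It rose with LPS, from a mean of 39.2 FPKM to 751 FPKM at 4 h (log2 4.23, adjusted p = 2.23e-09) and 292 FPKM at 3 d (log2 2.89), while *Cd180* fell at both times (log2 -0.93 and -1.21) and *Lbp* at 3 d (log2 -2.99, adjusted p = 0.000335).

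Endosomal receptors need escorts and proteases. Of 6 trafficking genes 5 were tested, with median log2 fold changes of -0.02 in RANKL 3 d, -0.60 in LPS 4 h and 0.19 in LPS 3 d, and *Unc93b1* was not analysed here. *Slc15a3*, an endolysosomal peptide and histidine transporter, was called in opposite directions, with means of 240 FPKM in control, 64.2 FPKM in RANKL 3 d (log2 -1.91, adjusted p = 9.64e-05) and 560 FPKM in LPS 4 h (log2 1.23, adjusted p = 0.000583). *Cnpy3*, a chaperone of several Toll-like receptors, fell at 4 h of LPS (log2 -1.22) and was higher than control at 3 d (log2 0.65). At 3 d of LPS *Slc15a3* was also higher (log2 0.99) and *Hsp90b1* was lower (log2 -0.79, adjusted p = 0.00521). Among the lysosomal proteases that cleave endosomal receptors, 3 of 4 were lower in RANKL 3 d, *Lgmn* (log2 -1.16, adjusted p = 0.000255), *Ctsl* (log2 -0.79) and *Ctsb* (log2 -0.62), with a list median of -0.70 against 0.16 over all tested genes, of which 7.54% were lower. At either time of LPS 0 of 4 were called, where 39.7% (4 h) and 14.4% (3 d) of all tested genes were lower.

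Some signalling genes downstream were called under both stimuli. Of all tested genes 8.43% were higher and 39.7% lower in LPS 4 h. These shares were 16.6% and 7.54% in RANKL 3 d, and 13.0% and 14.4% in LPS 3 d. *Myd88*, the adaptor of all members but *Tlr3*, had a mean of 57.9 FPKM in control, 147 FPKM in LPS 4 h (log2 1.34, adjusted p = 3.57e-06) and 30.5 FPKM in RANKL 3 d (log2 -0.92, adjusted p = 0.000378). In the adaptor list 5 of 6 genes were tested, and 1 was higher and 1 lower in LPS 4 h. The lower one was *Ticam1*, encoding TRIF (log2 -0.66), close to the median of -0.52 over all tested genes. In RANKL 3 d 1 was higher (*Ticam2*, log2 0.83) and 2 were lower, and *Pik3ap1* fell by 0.99 on the log2 scale. *Ticam2* was called higher in LPS 3 d as well (log2 0.98, adjusted p = 0.00148), where it was the only adaptor called. Of 8 kinases and ligases, 3 were higher and 2 lower in LPS 4 h, led by *Irak2* (log2 2.20) and *Ikbke* (log2 1.69), and 2 were higher and 1 lower in RANKL 3 d, led by *Traf3* (log2 1.06) and *Ikbke* (log2 -0.73). LPS 3 d had 3 higher and none lower in that list, with *Irak2* at log2 1.12 and *Traf3* at 0.68. The median log2 fold change of these kinases and ligases was 0.20 in LPS 4 h, 0.47 in LPS 3 d and 0.03 in RANKL 3 d, against -0.52, 0.08 and 0.16 over all tested genes.

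Of 6 negative regulators, the brakes of the plot, 3 were higher and 1 lower in LPS 4 h, where 8.43% of all tested genes were higher and 39.7% lower, and the list median was 1.08 on the log2 scale against -0.52 over all tested genes. They were *Socs1* (14.4 to 242 FPKM in group means, log2 4.30), *Tnfaip3* (18.9 to 335 FPKM, log2 4.14), which encodes the ubiquitin-editing enzyme A20, and *Irak3* (log2 2.24), an inhibitory IRAK. *Sigirr* was lower (log2 -1.84). At 3 d of LPS *Irak3* was still higher, at 57.8 FPKM against 9.86 FPKM in control (log2 2.51, adjusted p = 8.59e-07), whereas *Tnfaip3* (log2 0.38, adjusted p = 0.109) and *Socs1* (log2 0.26, adjusted p = 0.766) were not called, and *Sigirr* was lower there too. In RANKL 3 d, 1 of 6 was called, *Socs1*, lower by -2.30 on the log2 scale. RANKL 4 h called no gene of any of these lists.

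**Figure D5:**
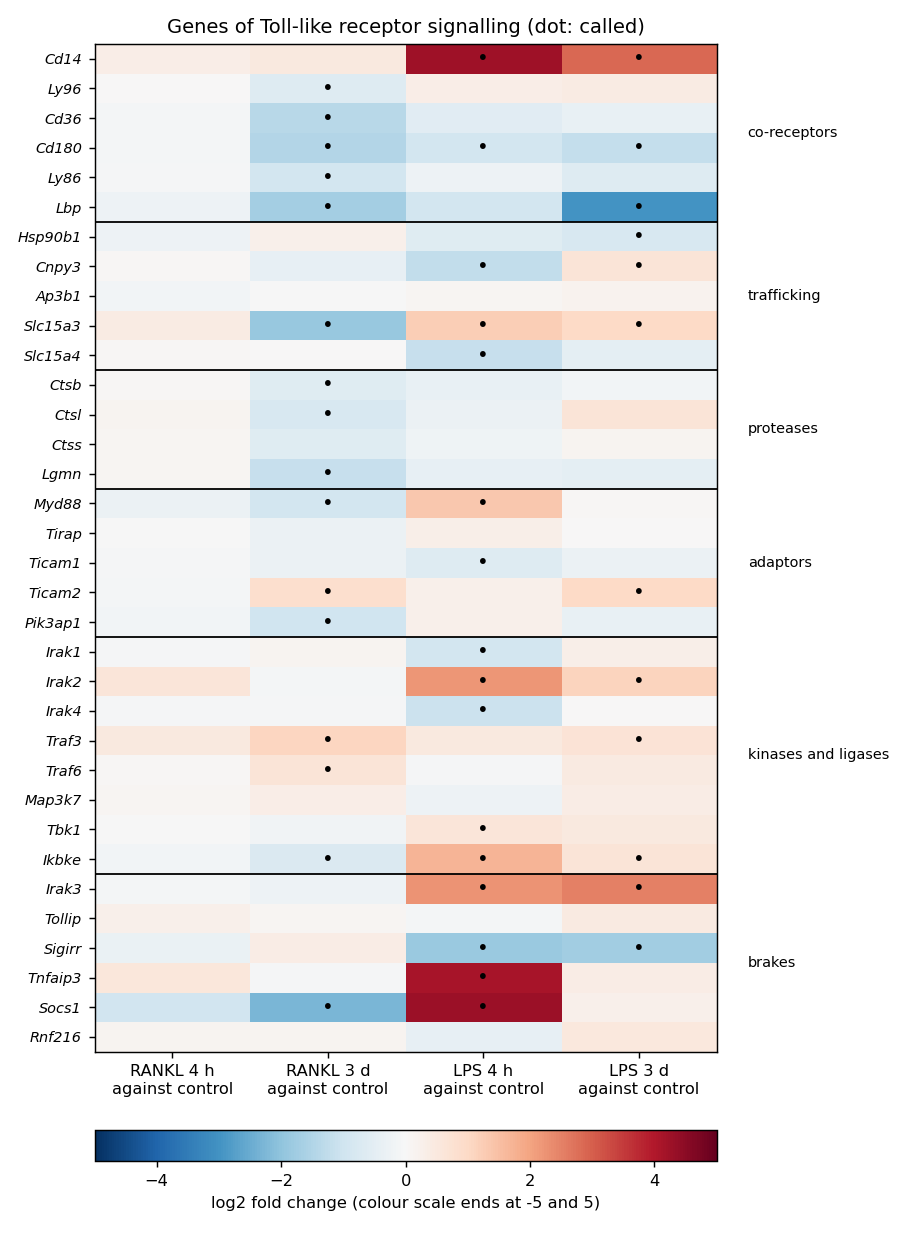
Log2 fold change against control (colour, red for higher and blue for lower) of the 34 tested genes of the 6 lists in the 4 stimulated groups, with a dot on each called gene. The LPS 4 h column holds the strongest reds (*Cd14*, *Tnfaip3* and *Socs1*), the RANKL 3 d column is blue for 5 of 6 co-receptors and 3 of 4 proteases with a dot, and the RANKL 4 h column has no dot.

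The genes whose log2 levels followed each member most closely over the 15 samples were named by Pearson correlation, as a description only, since the samples form 5 groups and share their libraries. Closest to *Tlr2* was *Gpr84*, a fatty acid receptor of activated macrophages (r = 0.985), with means of 4.03 FPKM in control, 9.09 in RANKL 4 h, 5.38 in RANKL 3 d, 79.0 in LPS 4 h and 12.3 in LPS 3 d, and then *Arl5c* and *Bcl3*, an NF-κB-binding protein (both 0.974). Closest to *Tlr3* were *Slfn8* (0.973), *Iigp1* (0.973) and *Herc6* (0.970), of which *Iigp1* encodes an interferon-inducible GTPase and went from 31.2 FPKM in control to 164 FPKM in LPS 4 h and 8.41 FPKM in RANKL 3 d. For *Tlr13* they were *Arhgap25* (0.984), *Ccdc125* (0.980) and *Rab7b* (0.972), a small GTPase of lysosomes that had 69.6 FPKM in control and 8.10 FPKM in LPS 4 h.

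The other members had looser matches. *Tlr1* was closest to *Tnfsf10* (0.948), *Trex1* (0.947) and *D1Ertd622e* (0.942), *Tlr6* to *Slc31a2* (0.953), *Pdpn* (0.947) and *Cxcl3* (0.944), and *Tlr4* to *Eif5b* (0.923), *Rab29* (0.913) and the iron exporter gene *Slc40a1* (0.892). Genes close to *Tlr7* were *Sp100* (0.943) and *Ifi44* (0.921), and *Tlr9* was closest to *Ms4a6b* (0.932), *Tenm4* (0.920) and *Mpeg1* (0.900). *Tlr8* had the weakest, *Itpr1* (0.784), *Anks1* (0.781) and *Rab29* (0.764). *Tlr5*, under the level set for this measure, was left out.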

How the data were processed

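RNA-seq was performed on 15 samples of mouse BMDMs in 5 groups of 3, assigned from the sample labels. The authors deposited FPKM values per gene, made with StringTie on GRCm38.p4 (mm10) per the submitters' processing notes, and, per the study's methods, tested their differences with edgeR at an unadjusted p. The aligner and the use of strand are not given in the sources used here. The table lists 20089 genes, of which 4453 were at 0 in every sample. As used here it ends in an incomplete line at *Ttk*, so genes that follow in its order were not analysed here, and totals and shares over all genes cover the listed ones. The members and gene lists were chosen with earlier results of these data known.

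From the deposited FPKM, 11743 genes with a mean of at least 0.1 were tested as log2(FPKM + 0.1) in a limma fit (version 3.58.1, R 4.3.3) over all 5 groups, with a variance trend and Benjamini-Hochberg adjustment over all tested genes. Fold changes are on the log2(FPKM + 0.1) scale, which understates changes of low genes. Values of 14485 of 14485 genes above 0 in at least 3 samples were whole multiples of the worth of 1 fragment (tolerance 0.01 fragments), giving a median depth of 19351141 fragments per sample, and voom on these fragments was an alternative. Fragments carry no molecular identifiers, so intervals on counts cover counting error only. On simulated data of 3000 genes the recovery was exact for 2897. Replicates differed by 7.65 to 54.8 times the sampling noise, with LPS 3 d replicate 3 farthest from its group (37.6 and 54.8, against 8.66 between the other two), so none was counted as a repeat deposit. Samples with the same replicate number deviated together in every pair among control, RANKL 4 h, RANKL 3 d and LPS 4 h (lowest correlation 0.103) but not in pairs with LPS 3 d (lowest -0.229), as the data and not the labels show.

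The members were named in full. From the other lists, called genes with large changes were named, but not the 2 largest in every comparison. Further genes of those lists were named after their values were seen. Genes of like pattern were the 3 with the highest Pearson correlation to each member, except that a gene of like pattern to *Tlr7* is not reported here. The alternatives were other pseudocounts, filters, scalings, fits, the replicate number as a block, voom, unadjusted p and leaving out each sample. Centring on the median gene took the median log2 level of each sample off its values before the fit. Values relative to the median gene are instead the log2 fold change less its median over all tested genes, and the 2 can differ. Coordinates are from the GENCODE M21 annotation. Python 3.11.15 with pandas 2.3.3 and scipy 1.17.1 was used.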

Additional observations from a re-analysis of the deposited data

Results flagged for a closer look

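For 10 pairings of a member with a stimulus the 4 h and 3 d levels differed by the limma test of 3 d against 4 h. A longer stimulus and a longer culture cannot be told apart in them. All are log2 differences of 3 d from 4 h, in 3 samples against 3. Under LPS, *Tlr2* differed by -2.97, *Tlr1* by -1.99, *Tlr3* by -1.74 and *Tlr7* by -0.84, while *Tlr13* differed by 1.61 and *Tlr4* by 0.76. Of all tested genes 44.2% were higher and 13.9% lower at 3 d of LPS than at 4 h. The *Tlr4* difference was no longer called when centred on the median gene, and the other 5 kept their call under every alternative.

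Under RANKL, *Tlr5* differed by 2.0 and *Tlr13* by -0.88, both called under every alternative that tested them. *Tlr9* differed by -0.84, with overlapping groups and a call lost in 8 of 26 alternatives, and *Tlr7* by -0.61, with a call lost in 6 of 26. The plasmacytoid dendritic cell markers were called lower over the same interval of RANKL for 3 of 4 genes tested, against 6.83% of all tested genes. The part of such cells in these 2 differences was not tested.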

How the results depend on the processing

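Of 2072 alternative values of the members' fold changes, 1969 kept their side of the threshold, 79 lost a call, 23 gained one and 1 came to be called in the opposite direction. That was *Tlr6* between the LPS times, at 0.04 as reported and -0.61 (adjusted p = 0.00428) when centred on the median gene. The shift was made by the centring, which takes the median log2 level of each sample off its values. Less the median log2 difference over all tested genes, 0.52, the *Tlr6* difference was -0.48, which does not pass the fold limit. Of 21 calls against control 9 held under every alternative, and 30 alternative values changed sign, with 0 of 1034 among called members. Many of these values could not change sign, because the alternative moved only the p-value or the call. Leaving out a sample of a group outside the comparison was among these. The filters, the replicate block, the fit without variance trend, the 2 groups alone and the unadjusted p did so as well. The counts of values that stayed are thus in part fixed in advance. With the replicate block no call on a member changed, and the count over all genes in RANKL 4 h went from 14 to 24.

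In RANKL 4 h the unadjusted p gave 4 members. The count of all genes there was 301 by unadjusted p, 3 without the variance trend, 0 with the 2 groups alone (301 at an unadjusted p under 0.05 in the fit of all groups, 14 by voom), and 1 (without RANKL 4 h replicate 2) to 17 (without LPS 3 d replicate 3) with a sample left out. Centring gave 3400 genes in LPS 4 h (1871 higher, 1529 lower; 5650 as reported) and 3485 in RANKL 4 h against LPS 4 h (1580 higher, 1905 lower; 5872 as reported). It also moved the split of higher and lower genes from 1951 and 886 to 1167 and 1428 in RANKL 3 d, from 2739 and 1506 to 2237 and 2045 between the 3 d groups, from 1930 and 802 to 1141 and 1351 between the RANKL times and from 5186 and 1631 to 2209 and 3224 between the LPS times. Between the RANKL times, scaling to equal sums left 2 members instead of 4. With a sample left out, members changed numbered 3 (without control replicate 2 or RANKL 3 d replicate 1) to 7 in RANKL 3 d, 3 (without LPS 3 d replicate 1) to 6 in LPS 3 d (5 without LPS 3 d replicate 3), 6 to 9 in LPS 4 h and 2 (without RANKL 4 h replicate 1 or 2 or RANKL 3 d replicate 2 or 3) to 4 between the RANKL times. Apart from the centring, the cause was not tested.

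The filter at a mean of 1 FPKM removed *Tlr5*. Depth limits *Tlr5* under LPS, where some samples held 1 or 2 fragments, and 3 samples a group limit every interval.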

Other observations

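*Tlr11* and *Tlr12*, endosomal receptors of a protozoan profilin in mice, were not among the members and were close to absent. *Tlr11* had at most 0.261 FPKM in any sample, from 0 to 18 fragments. *Tlr12* had 62, 43 and 16 fragments in control and 1, 7 and 6 in LPS 3 d, and its highest level was 0.909 FPKM. In control, RANKL 4 h, RANKL 3 d and LPS 4 h it was lowest in replicate 3.

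Among the remaining marker lists, 8 of 8 osteoclast markers were higher in RANKL 3 d, with summed levels of 1633 to 5275 FPKM against 93.2 to 174 FPKM in control. All 3 T cell markers were uncalled in the 4 comparisons with control. Of 3 conventional dendritic cell markers tested, *Flt3* was called lower in LPS 3 d and none was called in the other comparisons with control. *Zbtb46* was not analysed here.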
